A study of Mus musculus with 2 samples.

Results

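The p53 pathway was examined as 34 genes: Trp53, which encodes p53, its regulators and its target genes. They were picked by name from a curated list, with earlier results of these data known. All 34 have a row in the table of 14500 gene symbols. The data are RNA-seq of 46C cells, a mouse embryonic stem cell line with a green fluorescent protein gene in the Sox1 locus, at passages 21 to 24. One culture carried the empty vector, in the library titled PB, and the other a vector for Gbx2, a homeobox transcription factor, in the library titled PB-Gbx2. Both were grown on gelatin in serum medium with LIF, the cytokine that keeps these cells from differentiating. The promoter of the vector and whether each culture was a clone or a pool are not stated in the labels.

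Each group has 1 library, so no value below has a replicate error and no difference was tested. A level is a whole number without a unit, which the authors normalized so that both libraries hold the same set of values, and a ratio is the level in PB-Gbx2 over that in PB. For both libraries the title names one vector and the source name the other. Groups follow the titles, and every direction would turn around if the source names were right. Gbx2 itself stood at 345 in PB and 1178 in PB-Gbx2, 3.41-fold higher in the library whose title names it. All 6 stem cell markers checked were well above the median level of 388 in both libraries (Pou5f1 at 9446 and 10597). All 6 were also higher in PB-Gbx2 (49.2% of all genes were), with a median log2 ratio of 0.38. Zfp42 (8320 and 16671) and Nanog (8918 and 19872) were at least 2-fold higher. Of 10 fibroblast markers 5 had a row, with a summed level of 3331 in PB and 2452 in PB-Gbx2. Thy1 (866 and 492) and Col1a1 (132 and 36) were over 1.5-fold lower, as were 12.2% of all genes. Col1a2 stood at 9 and 18, and Col3a1, Lum, Dcn, Postn and Fap have no row. Col1a1 and Col1a2 had a mean level below 100, where 26.1% of all genes were at least 1.5-fold lower and 24.8% at least 1.5-fold higher. Of 14 markers of differentiated cells 7 had a row, with a summed level of 1370 in PB and 1315 in PB-Gbx2. Among them Sox1 (10 and 56), T (6 and 24) and Gata6 (18 and 45) were at least 2-fold higher. Nes (405 and 733) and Gata4 (36 and 68) were over 1.5-fold higher. Krt8 (532 and 225) and Krt18 (363 and 164) were at least 2-fold lower, as were 5.26% of all genes. Both have a mean level between 100 and 1000, where 2.60% of genes were 2-fold lower. Sox1, T, Gata6 and Gata4 had a mean level below 100, where ratios scatter widely and 14.0% of all genes were at least 2-fold higher. The part of fibroblasts or differentiated cells in the results below was not tested.

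As background, p53 is a transcription factor that is held low by Mdm2, a ubiquitin ligase that marks it for degradation. Its partner Mdm4 blocks the activation domain of p53. After DNA damage, kinases such as Atm and Chek2 release p53 from Mdm2, and it binds its target genes as a tetramer. Those targets stop the cell cycle, start apoptosis, aid DNA repair, alter metabolism, or act back on p53. Because control of p53 is largely at the level of the protein, mRNA levels of its targets are a common readout of its activity. Embryonic stem cells carry abundant p53, and it is known to repress Nanog when they differentiate.

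p53 binds DNA at 2 copies of a half-site of 10 bases: 3 purines, a C, a pair of bases that are A or T, a G and 3 pyrimidines. The half-site reads the same on both strands. It was searched in RefSeq promoter windows of build GRCm38.p6, each with 250 bases before and 50 after an annotated start. Windows were at hand for 26 of the 34 genes, and 14 of the 26 (53.8%) held at least 1 half-site, against 9.55% of 27025 genes with a window. Some genes have several windows. Among genes with a single window, 7 of 16 members (43.8%) held one, against 8.29% of 22862 genes. The members were listed as p53 genes, so their promoters are not a neutral sample. A match describes the letters and does not show that p53 is bound there. These sequences are shown because Cdkn1a, Ccng1 and Mdm2 are textbook targets whose levels are given below.

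The Cdkn1a promoter held 2 half-sites with 12 bases between them, and was the sole member window with 2 half-sites at most 13 bases apart, a spacing found in 0.074% of all genes with a window. The second half-site is followed without a gap by a partner with 1 mismatch. In the sequence, which runs 5′ to 3′ and ends at the base before the start, capitals mark the first half-site and then the second with its partner. A second annotated start of Cdkn1a lies 2841 bases downstream of the second half-site, and the window of that start held no half-site.
Cdkn1a, chr17:29090729-29090978, plus strand: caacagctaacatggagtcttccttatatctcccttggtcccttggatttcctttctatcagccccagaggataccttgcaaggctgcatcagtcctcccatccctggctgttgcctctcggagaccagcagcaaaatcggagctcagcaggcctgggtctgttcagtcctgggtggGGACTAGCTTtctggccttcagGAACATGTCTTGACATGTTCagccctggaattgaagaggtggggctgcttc

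A half-site touching a partner, defined as 10 bases that keep the C at place 4 and the G at place 7 and have at most 2 other mismatches, was a pattern looked for after the Cdkn1a sequence had been seen. It was found in 5 of 26 members (19.2%) and in 62 of 27025 genes (0.229%), a count that includes these 5 genes. Besides Cdkn1a these were Ccng1, Ckap2, Gtse1 and Rps27l. Capitals mark the half-site and its partner.
Ccng1, chr11:40755432-40755501, minus strand: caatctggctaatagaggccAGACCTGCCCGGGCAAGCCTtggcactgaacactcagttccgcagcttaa
Ckap2, chr8:22185983-22186052, minus strand: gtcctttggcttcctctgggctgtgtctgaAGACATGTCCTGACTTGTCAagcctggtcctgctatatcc
Gtse1, chr15:85859945-85859974, plus strand: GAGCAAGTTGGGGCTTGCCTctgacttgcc
Rps27l, chr9:66946296-66946325, plus strand: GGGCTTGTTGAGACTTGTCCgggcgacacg

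Of the 9 other members with a half-site, 6 are shown with the half-site in capitals. The half-site of Trp53 itself starts 75 bases before its start and that of Mdm2 186 bases before. In Aen it lies after the first annotated start and 121 bases before the next.
Trp53, chr11:69580254-69580323, plus strand: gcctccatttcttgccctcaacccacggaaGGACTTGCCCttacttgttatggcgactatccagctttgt
Mdm2, chr10:117710905-117710974, minus strand: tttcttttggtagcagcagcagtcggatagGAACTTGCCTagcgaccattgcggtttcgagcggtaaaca
Ppm1d, chr11:85311092-85311161, plus strand: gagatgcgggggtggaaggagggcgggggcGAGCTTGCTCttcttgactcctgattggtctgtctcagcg
Bax, chr7:45467060-45467129, minus strand: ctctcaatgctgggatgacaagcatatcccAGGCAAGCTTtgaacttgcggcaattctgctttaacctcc
Aen, chr7:78895927-78895956, plus strand: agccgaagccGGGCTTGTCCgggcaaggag
Ei24, chr9:36797325-36797354, minus strand: cgtgcggcccGGGCATGCCCagtgtgggcg

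**Figure D1:**
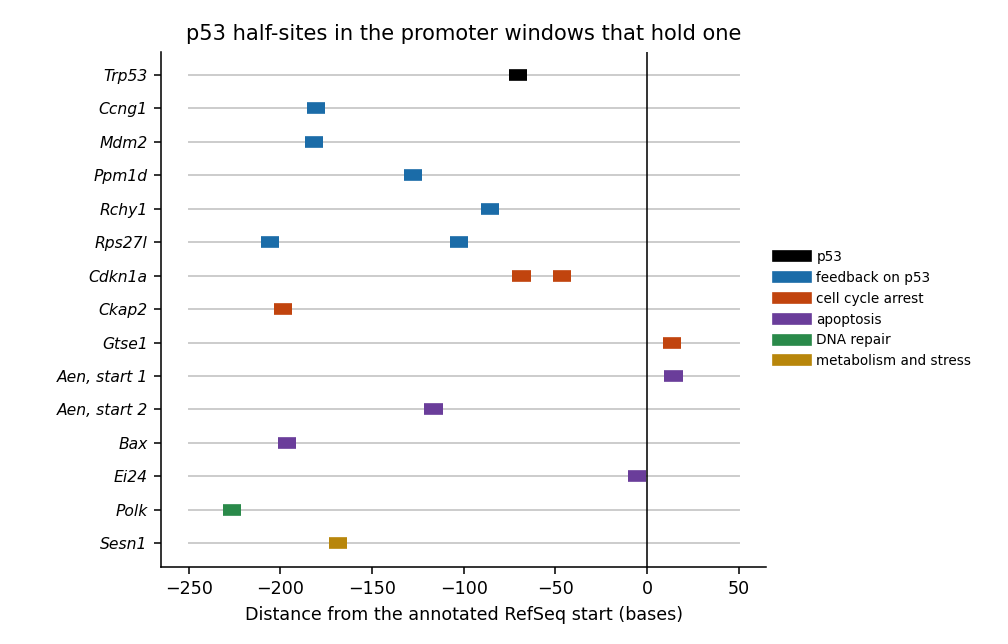
Position of each p53 half-site (coloured block, 10 bases) in the promoter windows of members that hold one; the horizontal axis is the distance in bases from the annotated RefSeq start and colours give the role of the gene. The blocks lie at many distances, and those of Gtse1 and of the first Aen start fall after the start.

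Holding a half-site did not go with a larger ratio. The 14 members with one had a median log2 ratio of 0.46 (range 0.22 to 1.37) and the 12 with a window but none had 0.53 (range -0.09 to 1.39). Plk2 and Phlda3, with the highest ratios of the list beside Ccng1, have no half-site in their windows. These windows do not reach sites further away or in introns.

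Of the 34 genes, 31 were higher and 3 lower in PB-Gbx2, where 49.2% of all genes were above 0 and 48.9% below. The median log2 ratio, computed on level + 1, was 0.48 for the members and 0 for all genes. Differences were mostly modest. The count at least 2-fold higher was 4 (5.14% of all genes), and none was 2-fold lower (5.26% of all genes). At 1.5-fold, 12 were higher (11.6% of all genes) and none lower (12.2% of all genes). The spread of ratios narrows with level, so the members were also read against genes of like level. All 21 members with a mean level of at least 1000 were higher, against 48.0% of the 3942 genes there. Of those 21, 7 were at least 1.5-fold higher (3.65% of such genes), 4 at least 2-fold (0.888%) and none 1.5-fold lower (3.53%). Of the 12 members with a mean level between 100 and 1000, 9 were above 0 (50.6% of such genes) and 4 at least 1.5-fold higher (8.68%), with none 1.5-fold lower (9.26%). The remaining member, Fas, was below a level of 100. Because the list was chosen with earlier results of these data known, these shares describe it and are not an independent test.

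**Figure D2:**
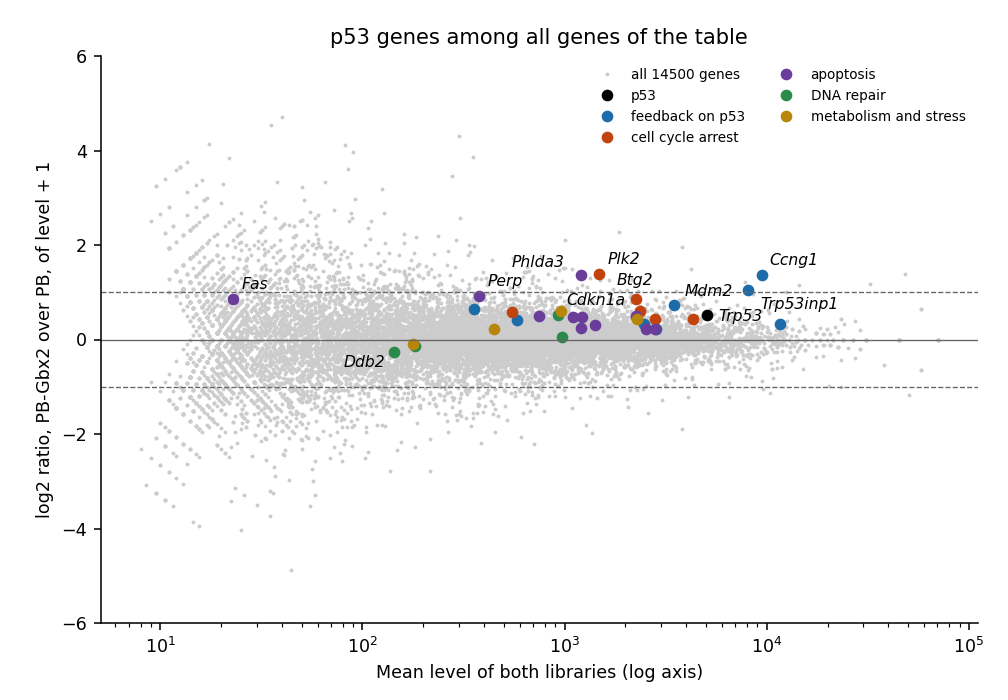
Log2 ratio of PB-Gbx2 over PB (vertical) against the mean level of both libraries (horizontal, log axis) for all genes (grey) and the 34 members (coloured by role); dashed lines mark 2-fold. Members with a mean level of at least 1000 all lie above 0, with Plk2, Ccng1, Phlda3 and Trp53inp1 above the upper dashed line.

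Trp53 stood at 4162 in PB and 5926 in PB-Gbx2. Its mRNA was thus 1.42-fold higher, a ratio at percentile 94.7 among the 500 genes nearest in level. By the same measure 10 of the 34 members lay at percentile 95 or above, where 5.02% of all genes lie.

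The genes that act back on p53 were all higher, with a median log2 ratio of 0.53 over 8. Ccng1 was at 5286 in PB and 13646 in PB-Gbx2. It encodes cyclin G1, which recruits a phosphatase to Mdm2, and its level was 2.58-fold higher. Trp53inp1, whose nuclear product promotes p53 phosphorylation and which also acts in autophagy, was at 5293 and 10938, 2.07-fold higher. Mdm2 was at 2640 and 4350. The ligase that opposes p53 was thus 1.65-fold higher (percentile 97.5). Mdm4, which has an Mdm2-like p53-binding domain, was at 10292 and 12915, 1.25-fold higher. Ppm1d, the Wip1 phosphatase that removes activating phosphates from p53, was at 278 and 435, 1.56-fold higher. Rchy1 (Pirh2), another p53 ubiquitin ligase, was at 498 and 668, 1.34-fold higher. Of these 4 inhibitors of p53, Mdm2 and Ppm1d reached 1.5-fold, as did 11.6% of all genes, and Mdm4 and Rchy1 did not. The RNA-binding protein gene Zmat3, whose product stabilises p53 mRNA, was at 2208 and 2762, 1.25-fold higher. Rps27l, a ribosomal protein gene induced by p53, had the smallest ratio of this group, at 2596 and 3047 (1.17-fold).

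**Figure D3:**
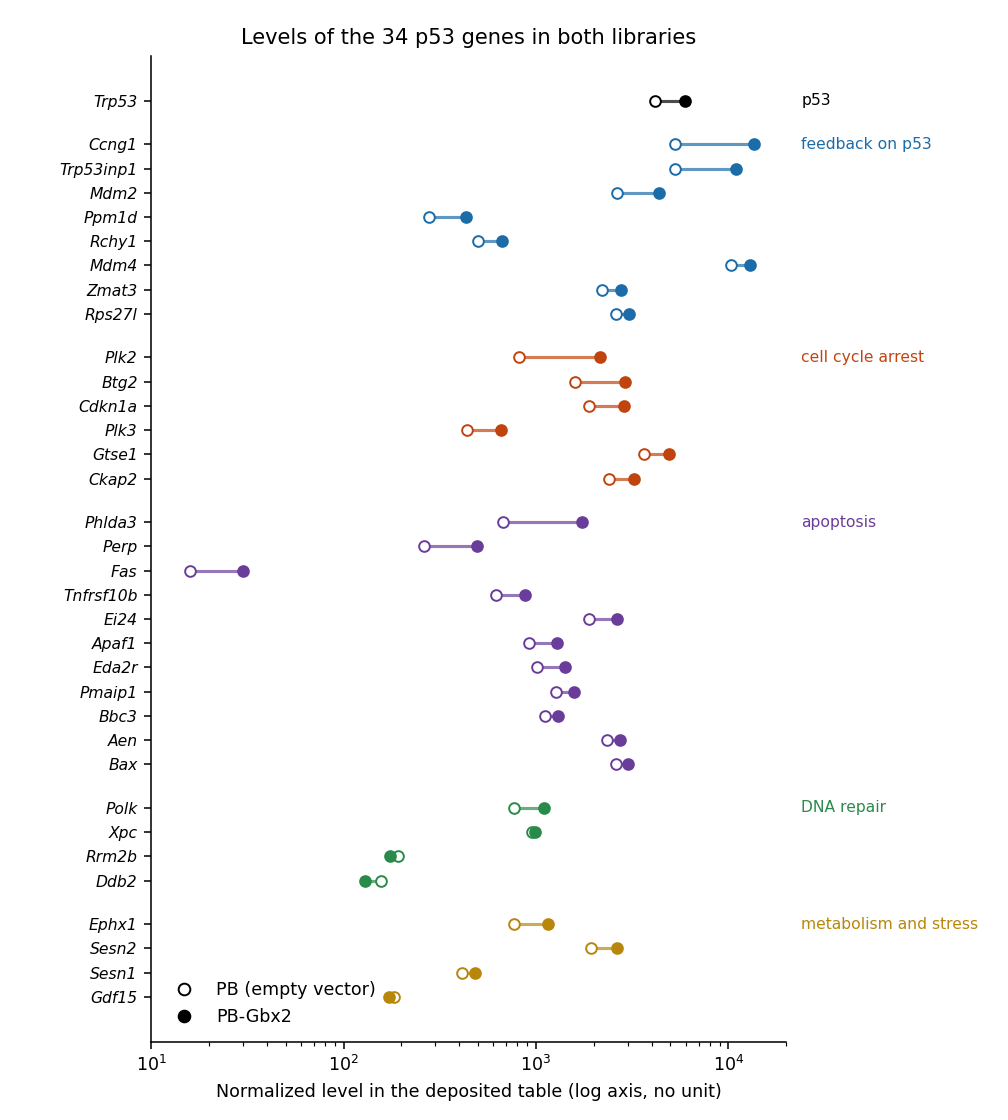
Level of each member in PB (open circle) and PB-Gbx2 (filled circle) on a log axis, grouped by role and sorted by ratio within a role. Filled circles lie to the right for 31 of the 34 genes; Rrm2b, Ddb2 and Gdf15 are the exceptions.

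The cell cycle genes were also all higher, with a median of 0.59 over 6. Cdkn1a encodes p21, the inhibitor of cyclin-dependent kinases through which p53 halts the cycle. It was at 1889 in PB and 2860 in PB-Gbx2, 1.51-fold higher (percentile 96.7). Plk2, a Polo-like kinase of centriole duplication and stress responses, was at 820 and 2158. At 2.63-fold it had the highest ratio of all 34. Its relative Plk3 was at 439 and 660, a ratio just past 1.5. The antiproliferative gene Btg2, which is also an immediate early gene, was at 1598 and 2908, 1.82-fold higher. Gtse1 and Ckap2, which peak in mitosis and bind microtubules, differed less. Gtse1 was at 3663 and 4932 (1.35-fold) and Ckap2 at 2397 and 3222 (1.34-fold).

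Of the 11 apoptosis genes, all were higher, with a median of 0.48, and Phlda3 had the highest ratio. This gene, whose product competes with the kinase Akt for membrane lipid, was at 677 in PB and 1740 in PB-Gbx2, 2.57-fold higher. Perp, a membrane protein of desmosomes as well as a p53 target, was at 262 and 496, 1.89-fold higher. The death receptor gene Fas was at 16 and 30, levels where ratios scatter widely (percentile 86.0). The other receptor genes were Tnfrsf10b, the TRAIL receptor, at 622 and 875 (1.41-fold), and Eda2r, which binds ectodysplasin A2, at 1017 and 1414 (1.39-fold). Neither receptor reached 1.5-fold. The Bcl2-family genes of the mitochondrial route differed less than these receptor genes. Bax, the pore-forming effector, was at 2594 and 3016 (1.16-fold). Bbc3 (Puma) was at 1108 and 1309 (1.18-fold). Pmaip1 (Noxa) was at 1264 and 1570 (1.24-fold). These Bcl2-family genes, which carry out the death programme of p53, thus all differed by less than 1.25-fold. Among genes of like level they lay at percentiles 82.1 to 87.1. Apaf1, the scaffold of the apoptosome and also of the mitochondrial route, was at 925 and 1288, a ratio like that of Eda2r (1.39-fold). Ei24, a membrane protein of the endoplasmic reticulum, was at 1878 and 2640 (1.41-fold). Aen, an apoptosis-enhancing nuclease, was at 2346 and 2731 (1.16-fold).

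The DNA repair genes did not share the direction, with a median of -0.05 over 4. Polk, a translesion DNA polymerase, was at 769 and 1095, 1.42-fold higher. Xpc, the damage sensor of nucleotide excision repair, was at 956 and 990. Ddb2, which finds ultraviolet lesions, was at 156 in PB and 130 in PB-Gbx2, 1.20-fold lower. Rrm2b, the p53-inducible ribonucleotide reductase subunit, was at 192 and 174, 1.10-fold lower. Ddb2 and Rrm2b are among the less abundant members and lie well inside the spread of genes of like level (percentiles 30.5 and 39.5).

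In the metabolism and stress group the median was 0.33 over 4. Ephx1, an epoxide hydrolase of xenobiotic metabolism, was at 768 and 1162, 1.51-fold higher. The sestrins, which restrain mTORC1 when amino acids are short, were at 1942 and 2632 for Sesn2 (1.36-fold) and at 412 and 480 for Sesn1 (1.17-fold). Gdf15, a secreted stress cytokine, was at 183 and 172, 1.06-fold lower. Gdf15 and Sesn2 are also targets of ATF4.

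In the authors' deposited table, which reports p-values from these same 2 libraries, 2 of the 34 members have an adjusted p under 0.05, where 0.234% of its rows do. The authors' deposited table gives Ccng1 an adjusted p of 0.00793 and Plk2 one of 0.0455. For Phlda3 it is 0.0778 in the authors' deposited table, for Trp53inp1 0.140, for Btg2 0.666 and for the other 29 members 1. The labels name a kit that does not mark strand, so reads of overlapping genes cannot be told apart. Exons of Acp2 on the other strand cover 23.8% of the exonic bases of Ddb2, and those of Thap6 18.0% of Rchy1, in the GENCODE M21 annotation. For Bax a gene model on the same strand covers 12.2%, and 5 further members share between 3.32% and 8.04%.

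Other genes of the pathway were read from lists of their own. Among 32 damage kinases and cofactors with a row, 14 were higher (43.8%, against 49.2% of all genes) and 18 lower, with a median of -0.06. The kinases that sense damage were lower: Atm stood at 1428 in PB and 945 in PB-Gbx2 (1.51-fold) and Atr at 1619 and 996 (1.63-fold). Chek2, which Atm activates, was at 1930 and 2454, 1.27-fold higher. Sirt1, a deacetylase that acts on p53, was at 1784 and 3633, the single gene of this list past 2-fold. The acetyltransferase gene Crebbp was at 446 and 682 (1.53-fold higher). Trp73, the p53 relative, was at 87 and 236, 2.71-fold higher, and Trp63 has no row in the table. In the list of Arf and ribosomal stress genes, Cdkn2a, whose Arf product inhibits Mdm2, was at 76 and 114. Ncl was at 70328 and 45116. Npm1 was at 70328 in both, the highest value of the table, which 10 genes share in each library, and the next value down is 45185. Rpl5 was at 45146 in both, a value that 3 genes share in each library. Gnl3 was at 4110 and 4052.

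A further 47 genes reported as p53 targets had a median of 0.24, with 31 above 0 (66.0%, against 49.2% of all genes) and 16 below. At 1.5-fold 10 were higher (21.3%, against 11.6% of all genes) and 5 lower (10.6%, against 12.2%). At 2-fold 3 were higher (6.38%, against 5.14%) and 2 lower (4.26%, against 5.26%), shares near those of all genes. The largest ratio was that of Lif, the cytokine the medium supplies, at 34 in PB and 178 in PB-Gbx2. The mean level of Lif was 106, just above the range below 100 where ratios scatter widely. Ptprv, a receptor phosphatase linked to p53-dependent arrest, was at 352 and 944 (2.68-fold higher) and Dcxr, a xylulose reductase, at 420 and 960 (2.29-fold higher). Rap2b was at 218 and 408 (1.87-fold higher). The 2 genes at least 2-fold lower were Gadd45g (120 and 30) and Cd82 (20 and 8). Both had a mean level below 100, where 14.5% of all genes were at least 2-fold lower. Gadd45a, a classical damage-induced gene, was at 634 and 515, 1.23-fold lower. Promoter windows were counted over all 56 listed symbols, with or without a level, and 47 of these have a window. A half-site was found in 2 of those 47 (4.26%), against 9.55% of all genes with a window.

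Genes downstream of the arrest and death programmes had group medians near 0. Of 49 genes listed as lowered by p53 through p21 and the DREAM repressor complex, 15 were above 0 and 33 below. The list also holds Lin9, Lin37, Lin52, Lin54, Rbl1 and Rbl2, which encode parts of that complex. The share above 0 was 30.6%, against 49.2% of all genes, and the median was -0.09. None was 1.5-fold higher (11.6% of all genes), and 4 were 1.5-fold lower (8.16% of the list, against 12.2% of all genes). These were the kinetochore gene Cenpf (5706 and 2468), the kinesin gene Kif23 (3964 and 2406), the proliferation marker Mki67 (8908 and 5795) and the DNA crosslink repair gene Fancd2 (2126 and 1415). All 4 had a mean level of at least 1000, where only 3.53% of genes were 1.5-fold lower and 3.65% 1.5-fold higher. Of 23 Bcl2-family and caspase genes, 11 were above 0 (47.8%, against 49.2% of all genes) and 12 below, with a median of 0.00. Bcl2l2, which protects cells from death, was at 486 and 252 (1.93-fold lower). Casp6, a caspase, was at 294 and 206. Bok was at 90 and 132. The survival genes Mcl1 (7780 and 8524) and Bcl2l1 (393 and 420) differed by at most 1.10-fold, and Bcl2 has no row in the table. Among 14 genes for other cyclin-dependent kinase inhibitors and for partners of p21, the median was -0.07. At 2-fold, 3 were higher (21.4%, against 5.14% of all genes) and 1 lower (7.14%, against 5.26%). Those higher were Cdk6 (100 and 352) and Ccnd1 (670 and 1380), a kinase and a cyclin of the G1 phase, and the inhibitor gene Cdkn2b (38 and 98). Cdkn2b had a mean level below 100, where 14.0% of all genes were at least 2-fold higher. The lower one was Cdkn1c, the p57 inhibitor, at 734 and 276 (2.66-fold). Rb1 was at 444 and 568. Nanog was at 8918 and 19872, 2.23-fold higher.

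**Figure D4:**
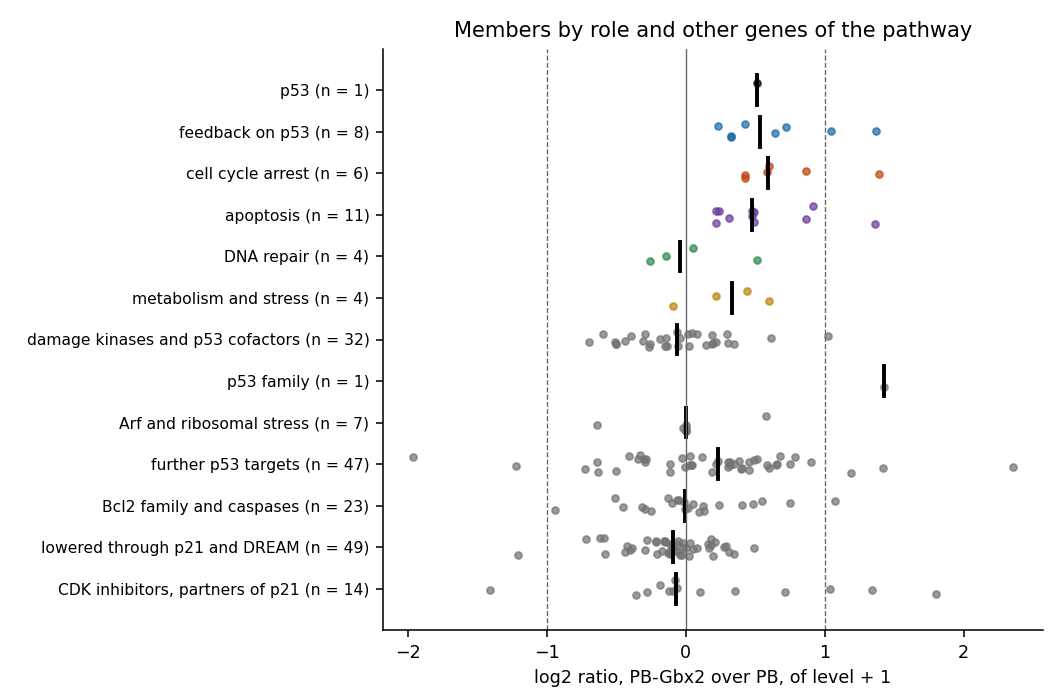
Log2 ratio of PB-Gbx2 over PB for each gene of the 6 role groups (coloured) and the 7 other lists (grey); each dot is a gene, black bars are medians and dashed lines mark 2-fold. Medians of the feedback, arrest and apoptosis groups lie between 0.48 and 0.59, while those of the kinase, Bcl2-family and DREAM lists lie within 0.1 of 0.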

How the data were processed

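RNA was measured in 2 libraries, 1 per vector, made with Trizol and a TruSeq RNA kit, per the labels' protocols. The submitters' processing notes name STAR and the build mm9. The annotation, the counting tool and the kind of normalization are not stated there. The deposited levels are treated as a score and not as counts, because the sorted values of both libraries are equal in all 14501 rows. Read depth is therefore unknown, and neither counting intervals nor detection limits are given. The authors' deposited ratio and its log2 are PB over PB-Gbx2, the opposite of the direction used here, and the authors' p-values are quoted as theirs.

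The 2 rows of one repeated symbol were summed. The log2 ratio was computed on level + 1, which understates the change of low genes, and called at 1.5-fold or 2-fold. Each gene was also placed among the 500 genes nearest in mean level. Members, role groups and gene lists were chosen with earlier results of these data known. Every member is named, and up to 4 genes per other list with the largest ratio at a mean level of at least 100, plus Atm, Chek2, Cdkn2a, Trp63, Trp73, Bcl2, Bcl2l1, Mcl1, Gadd45a, Gbx2 and Nanog. One gene that the rule covers is not reported here. Marker genes, Gadd45g, Cd82 and Cdkn2b were named after their values were seen. Symbols were matched as written. Promoter sequences are from RefSeq (GRCm38.p6), so their coordinates are not in the build of the reads. The 2-fold call was tried on simulated counts with larger planted changes, and the half-site search on random sequence with a planted exact match. Such trials check that the code runs as written. They do not cover the 1.5-fold calls, levels that are not counts, or the lack of replicates. Python 3.11.15, numpy 2.4.6 and pandas 2.3.3 were used.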

Additional observations from a re-analysis of the deposited data

How the results depend on the processing

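The counts and medians of the members were recomputed under 7 alternatives: a pseudocount of 0.1 or 5, a mean level of at least 100, rescaling by a mean of the ratios trimmed by 30 percent on either side or by the median of genes at a mean level of at least 1000, leaving out 8 members that ATF4 or immediate early signals also induce, and leaving out Gtse1 and Ckap2. Of 77 values, 75 stayed within 1.5 times for counts or 0.1 for log2 medians. The 77 include both rescalings and medians of groups that lost no member, so part of this tally could not have moved. The 8 shared members are Sesn2, Gdf15, Pmaip1, Bbc3, Btg2, Plk2, Plk3 and Tnfrsf10b. Without them, 3 of the remaining 26 members were at least 2-fold higher. The median of the cell cycle group was 0.43 without the 8 shared members and 0.73 without Gtse1 and Ckap2, with 3 and 4 genes left. Both rescalings changed the log2 ratios by at most 1.6e-05 and thus say nothing about stability. Of 136 single-gene values, which also include both rescalings, 1 moved by over 0.1, that of Fas with a pseudocount of 5 (0.74). No paired analysis was possible because there is a single library for either vector, which also means that none could be left out.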
